A study of Homo sapiens with 6 samples.

Results

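The small RNA signals of HCT-116 cells, a colorectal carcinoma line of human origin, were described at baseline, after transient transfection with an empty vector (mock). Mock cells gave 2 of the 6 arrays of the series. The other arrays, which are not compared here, read the same cells overexpressing variant 1 or variant 2 of Uc283+a, a transcribed ultraconserved RNA. Each array carried biotin-labelled copies of total RNA that had been reverse-transcribed from random primers. The members described are the 1115 human mature-named miRNA features among 2997 on the array. They were chosen by name: hsa or has at the start, no mismatch tag and no precursor ending. Nothing in the labels says that the 2 arrays came from separate cultures, so the spread between them may be technical. With a single group there was nothing to test against, and all values below are descriptions of 2 arrays.

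MicroRNAs are short RNAs cut from hairpins by Drosha and Dicer and loaded into Argonaute, where the seed (bases 2 to 8) chooses the messenger RNAs to be repressed. One arm of the hairpin is usually kept as the guide and the other, written with a star in older names, is usually degraded. Several hairpins can lie in 1 primary transcript, and colorectal tumours are known for high levels of the miR-17 clusters, miR-21 and miR-31 and for an epithelial miR-200 family. Random primers copy any RNA in the sample, so a mature-named probe can also read a precursor or another transcript that holds its sequence. The order of probes below is an order of brightness and not of molecules, because probes differ in affinity and labelling.

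All values are log2 signals as the authors normalized them, and background was taken as what random sequence gives on the same array. Each array carried 38 Randomer probes, whose median was 6.13 on replicate 1 and 6.35 on replicate 2. The limit for calling a probe bright was the 95th percentile of these probes, which was 6.86 on replicate 1 and 6.81 on replicate 2. Above the limit on both arrays were 351 of the 1115 members, or 31.5%, and this share is the background against which the counts of each family are given. Stricter limits from the same probes, their highest value or their median plus 3 scaled median absolute deviations, left 19.1% and 19.3% of members, and list counts that moved by over 1.5 times under them are given beside the list. Separately, 424 members passed on replicate 1 and 437 on replicate 2. The limit marks brightness over random sequence only: 115 of the mature probes named for mouse miRNAs with no human namesake passed it as well, or 38.2% of them. Most members lay in a narrow band at or under the limit, with a median of 6.25 for the 764 that did not pass, against a median of 8.99 for those that did. The bright tail was short, with 113 members at a mean of 10 or more, 34 at 12 or more and 5 at 14 or more.

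**Figure D1:**
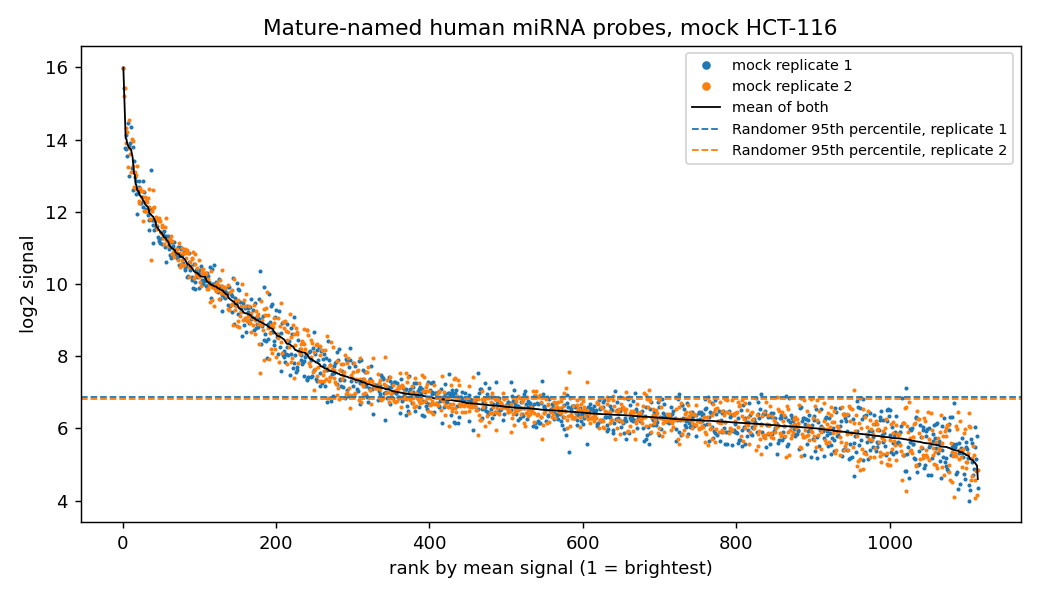
Log2 signal of each of the 1115 mature-named human miRNA probes (y axis) against its rank by mean signal (x axis), with blue points for mock replicate 1, orange points for mock replicate 2, a black line for the mean and dashed lines for the 95th percentile of the Randomer probes. The curve drops steeply over the brightest 113 probes, which have a mean of 10 or more, and then flattens at the dashed lines.

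The sequences of the bright families show which probes could read each other's targets, so they are printed first, from RefSeq (GRCh38.p14), with the seed in capitals. Old array names carry no arm, and the arm shown is the guide arm of common usage.
hsa-miR-92a-3p: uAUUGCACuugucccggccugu
hsa-miR-92b-3p: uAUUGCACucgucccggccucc
hsa-miR-25-3p: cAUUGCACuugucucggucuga
hsa-miR-17-5p: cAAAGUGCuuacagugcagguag
hsa-miR-20a-5p: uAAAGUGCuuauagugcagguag
hsa-miR-23a-3p: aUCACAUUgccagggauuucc
hsa-miR-23b-3p: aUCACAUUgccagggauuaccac
hsa-miR-221-3p: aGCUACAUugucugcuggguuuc
hsa-miR-222-3p: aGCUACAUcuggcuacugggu
hsa-let-7b-5p: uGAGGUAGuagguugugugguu
hsa-let-7a-5p: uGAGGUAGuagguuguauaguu
hsa-let-7c-5p: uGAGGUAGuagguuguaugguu
hsa-let-7f-5p: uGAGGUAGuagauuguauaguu
hsa-miR-103a-3p: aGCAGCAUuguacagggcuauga
hsa-miR-107: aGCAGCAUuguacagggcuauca
hsa-miR-320b: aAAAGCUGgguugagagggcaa
hsa-miR-320c: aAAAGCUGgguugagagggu
hsa-miR-320d: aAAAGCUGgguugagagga
hsa-miR-320e: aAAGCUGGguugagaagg

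Within most of these seed groups the whole mature sequences were close. Counted as the fewest single-base changes, insertions or losses, miR-23a and miR-23b differed at 3, miR-103a and miR-107 at 1, miR-17 and miR-20a at 2, and miR-92a at 3 from miR-92b and at 4 from miR-25. Let-7a differed at 1 base from let-7c and at 1 from let-7f. The pair miR-221 and miR-222 differed at 6, as did miR-92b and miR-25. The printed miR-320e lacks the leading base of the others, so its seed, by position, is shifted by 1.

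A single member stood at the scanner ceiling. The probe hsa-miR-1273c gave 15.99 on both arrays, the highest value of either array, and a signal there has no measurable upper bound. Its mature sequence lies at chr6:154853369-154853390 (+) and is printed because it carries the brightest signal among the members.
hsa-miR-1273c: gGCGACAAaacgagacccuguc
The next probe, hsa-miR-92a, gave 15.42 and 15.22, and hsa-miR-553 gave 13.76 and 15.42. The last of these was among the 5 bright probes that were most in excess on replicate 2. Its sequence, at chr1:100281256-100281276 (+) within the span of RTCA, is shown for its run of A and U.
hsa-miR-553: aAAACGGUgagauuuuguuuu

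The miR-17 clusters and their paralogs, which are induced by MYC and promote proliferation, held the brightest family signal. Of their 29 probes, 11 passed the limit, or 37.9%, and the passing probes were 9 of the 14 guide names and 2 of the 15 star names. The probes that share the seed of miR-92a stood highest, with hsa-miR-92a as above, hsa-miR-92b at 13.56 and 14.22 and hsa-miR-25 at 12.14 and 12.57. The gene MIR25 lies within the span of MCM7, a replication factor gene. In the miR-17 seed group, hsa-miR-20a gave 11.55 and 11.64, hsa-miR-17 gave 11.39 and 11.29, hsa-miR-20b 11.03 and 10.48, and hsa-miR-106a 10.89 and 10.52. On both arrays these 4 probes lay above log2 10 and stood clear of the limit. Also above it were hsa-miR-106b at 9.88 and 9.98 and hsa-miR-93 at 9.66 and 9.43.

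Members of the same primary transcript were not all bright. The 6 hairpins from MIR17 to MIR92A1 lie together at chr13:91350605-91351391 (+), inside MIR17HG, yet hsa-miR-18a gave 6.53 and 6.82, hsa-miR-19a 6.59 and 6.34, and hsa-miR-19b 6.74 and 6.05. These 3 did not pass the limit on both arrays, although hsa-miR-18a passed narrowly on replicate 2. The probes hsa-miR-17, hsa-miR-20a and hsa-miR-92a, which also have hairpins there, passed on both. The cluster from MIR363 to MIR106A on the X chromosome also holds miR-92a and miR-19b, so their signals cannot be assigned to MIR17HG alone. The dimmest of the family was hsa-miR-92a-2* at 5.32 and 5.39. Probe affinity was not measured, and its part in this contrast was not tested.

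The pair miR-221 and miR-222, which represses the cell cycle inhibitor p27, was bright on both arrays. The probe hsa-miR-222 gave 13.89 and 13.60 and hsa-miR-221 gave 12.85 and 12.63. Both hairpins lie in MIR222HG on the X chromosome. Their star strands were at background, with means of 6.23 and 6.56, so 2 of 4 probes passed.

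In the clusters of miR-23, miR-27 and miR-24, known regulators of metabolism and of muscle and blood vessel programmes, all 5 guide probes passed and none of the 6 star probes did, and 3 passed under each stricter Randomer limit. The brightest were hsa-miR-23b at 13.74 and 14.32 and hsa-miR-23a at 13.20 and 14.03. The probe hsa-miR-24 gave 10.49 and 9.93. From the same transcripts, hsa-miR-27a at 7.20 and 7.13 and hsa-miR-27b at 7.02 and 6.85 lay just over the limit. The dimmest probe, hsa-miR-27b*, gave 5.06 and 5.19 and was among the 10 dimmest members of all.

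The let-7 family, repressors of RAS, MYC and HMGA2, passed the limit for 14 of 19 probes, or 73.7%. These were 8 of 9 guide probes and 6 of 10 star probes, with let-7f-1* counted under both spellings of its prefix. With the highest Randomer probe as the limit 8 passed, and with the median-based limit 9. Its brightest probes were has-let-7b at 12.42 and 12.41, hsa-let-7a at 12.08 and 12.32, and hsa-let-7c at 12.03 and 12.28. These 3 differ by at most 2 bases from each other and their means lay within 0.25. Next came hsa-let-7d at 10.96 and 11.17, hsa-let-7e at 10.82 and 11.25 and hsa-let-7i at 10.75 and 11.20, which overlap. The probe hsa-let-7f, which differs from hsa-let-7a at 1 base, gave 8.45 and 9.31, and hsa-let-7g gave 10.01 and 9.92. The dimmest was hsa-let-7c* at 6.01 and 5.31.

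The miR-320 family, whose founding member is made without Drosha, passed with all 6 of its probes. Their means ran from 11.81 to 12.58, from hsa-miR-320a at 11.49 and 12.13 to hsa-miR-320e at 12.52 and 12.63. Each of the 6 was brighter on replicate 2 than on replicate 1. The pair of miR-103 and miR-107, which lie within the spans of the pantothenate kinase genes PANK2, PANK3 and PANK1, also passed whole, with hsa-miR-103 at 12.31 and 12.03 and hsa-miR-107 at 11.62 and 11.53.

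Among the group of miR-10, miR-99, miR-100 and miR-125, whose hairpins lie in HOX clusters or beside let-7 hairpins, 8 of 15 probes passed, or 53.3%. The probe hsa-miR-100 gave 12.70 and 12.26, hsa-miR-10a gave 11.33 and 11.23 and hsa-miR-125b gave 10.79 and 10.96. The remaining guide probes above the limit were hsa-miR-99b at 10.72 and 10.96, hsa-miR-99a at 10.40 and 10.97, hsa-miR-125a-5p at 10.50 and 10.47, and hsa-miR-10b at 9.48 and 8.99, and the star strand hsa-miR-10b* gave 7.25 and 7.38. The 3 hairpins of MIR99B to MIR125A on chromosome 19, with that of let-7e among them, all had a bright probe.

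The oncogenic miR-21, which represses PDCD4 and lies within the span of VMP1, gave 11.47 and 11.12, and its star strand gave 6.37 and 5.97. Its mature sequence is at chr17:59841273-59841294 (+).
hsa-miR-21-5p: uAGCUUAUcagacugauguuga
Among other colorectal oncomiRs, 7 of 23 probes passed, or 30.4%, close to the background share. They were hsa-miR-92a, hsa-miR-20a and hsa-miR-17 of the clusters above, hsa-mir-31 at 10.52 and 9.38, hsa-miR-182 at 9.29 and 7.97, hsa-miR-181b at 11.06 and 10.88, and hsa-miR-183* at 7.37 and 7.07. The probe hsa-miR-155 gave 6.77 and 8.39 and did not pass on replicate 1.

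The epithelial miR-200 family, which keeps ZEB1 and ZEB2 low, passed with all 5 guide probes and none of its 4 star probes. Under each stricter Randomer limit 2 of the 5 passed, and under a limit from mouse-only probes 0. That limit also left 0 probes for several other families, miR-21, miR-26, miR-29, miR-30 and miR-181 among them. It left 26 of the 114 family and class probes. The probe hsa-miR-200c gave 10.10 and 10.31 and hsa-miR-200b gave 9.91 and 9.31. Weaker were hsa-miR-429 at 7.42 and 8.58, hsa-miR-200a at 8.26 and 7.30 and hsa-miR-141 at 7.51 and 7.65, whose ranges overlap. The brighter pair shares its seed and differs at 2 bases, and is printed to show this.
hsa-miR-200b-3p: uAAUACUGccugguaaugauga
hsa-miR-200c-3p: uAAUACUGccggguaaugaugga

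The intestinal epithelial miRNAs miR-192, miR-194 and miR-215, which mark differentiated gut epithelium, gave no bright probe. The probe hsa-miR-192 gave 6.58 and 7.02, hsa-miR-194 gave 6.89 and 6.67, and hsa-miR-215 gave 5.94 and 6.24. In all, 0 of 5 probes passed on both arrays, although hsa-miR-192 and hsa-miR-194 each passed on 1. The family of miR-148 and miR-152, which targets DNMT1, likewise had 0 of 5, with hsa-miR-148b the brightest at 7.09 and 6.74. This probe too passed on 1 array. For both families the counts say only that no probe stood above the limit on both arrays.

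The miR-15 and miR-16 relatives, which repress cyclins, was of moderate brightness, with 6 of 14 probes above the limit, or 42.9%, and 3 with the highest Randomer probe or 2 with the median-based limit. The probes hsa-miR-497 at 9.61 and 9.28 and hsa-miR-195 at 9.35 and 9.23 come from 1 transcript. The abundant hsa-miR-16 gave 9.71 and 7.92, a gap of 1.79 between arrays, so its place relative to these was not settled. Also above the limit were hsa-miR-15a at 7.81 and 8.60, hsa-miR-15b at 7.22 and 7.87 and hsa-miR-16-2* at 7.90 and 7.33.

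The p53-induced miR-34 family was near the limit, with 3 of 10 probes above it, or 30%, and 0 of 10 under each stricter Randomer limit. The probe hsa-miR-34b gave 8.05 and 7.65, hsa-miR-34c-3p gave 7.37 and 7.18 and hsa-miR-34a gave 7.02 and 7.04. Of the 4 mismatch probes for hsa-miR-34a, 3 were at least as bright as it, with a median of 7.62 over the 4. None of the miR-449 relatives passed.

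Other broadly expressed families ranged from mostly bright to mostly dim. The miR-29 family, which targets collagens and DNA methyltransferases, passed with 6 of 7 probes, or 85.7%, and with 2 under the median-based limit. It was led by hsa-miR-29a at 10.55 and 10.15, hsa-miR-29c at 9.87 and 8.97, hsa-miR-29b at 9.24 and 7.85 and hsa-miR-29b-1* at 8.78 and 7.85. All of its probes above the limit except hsa-miR-29b-2* were brighter on replicate 1. The miR-30 family passed with 6 of 11, led by hsa-miR-30d at 10.23 and 9.86, hsa-miR-30b at 10.06 and 9.99, hsa-miR-30a at 9.70 and 9.94 and hsa-miR-30c at 9.37 and 8.91. The miR-26 pair, which targets EZH2, gave 11.44 and 11.40 for hsa-miR-26b and 10.11 and 10.31 for hsa-miR-26a. The miR-181 family passed with 5 of 7, and with 3 under each stricter Randomer limit, led by hsa-miR-181b and then hsa-miR-181d at 9.81 and 9.71, hsa-miR-181a at 9.02 and 8.87 and hsa-miR-181c at 7.32 and 7.47. In the miR-130 and miR-301 family only hsa-miR-130b at 10.61 and 10.47 and hsa-miR-130a at 9.74 and 9.69 passed, which is 2 of 8 probes, or 25%, below the share over all members. On replicate 2 alone 6 of the 8 passed.

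**Figure D2:**
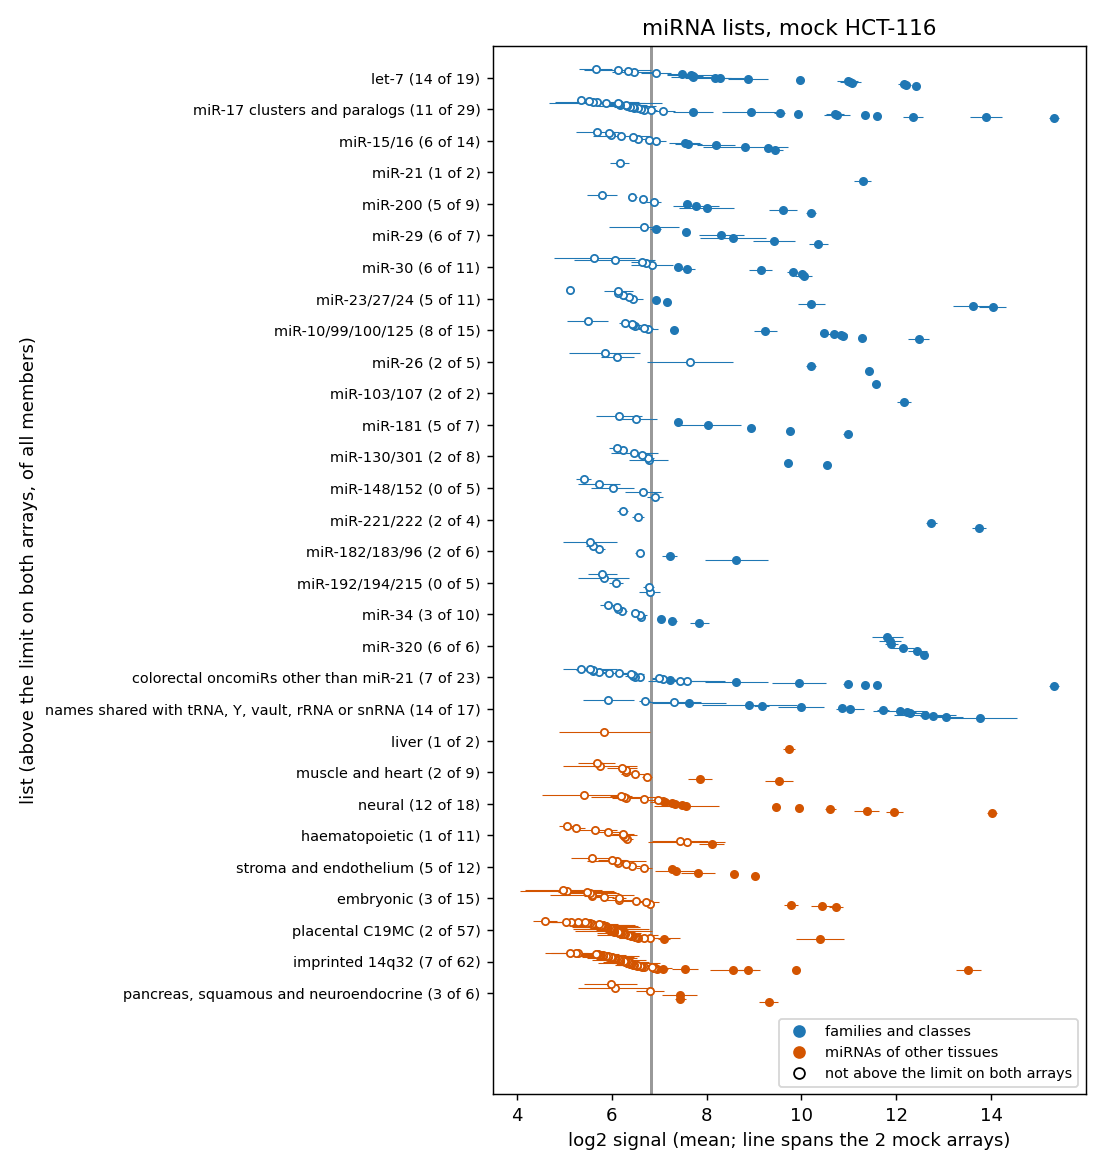
Log2 signal (x axis) of every member of 30 miRNA lists (rows), each dot the mean of the 2 mock arrays and each line the span between them. Blue rows are families and small RNA classes, orange rows are miRNAs known from other tissues, filled dots passed the limit on both arrays, open dots did not, and the grey band is the limit. The miR-320 row lies wholly to the right of the band, while 2 rows, that of miR-192 with its partners and that of miR-148 with miR-152, have no filled dot.

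Names listed as shared with fragments of transfer, Y, vault, ribosomal or small nuclear RNA were mostly bright, as 14 of 17 passed, or 82.4%. Their median was 11.03 against 6.50 over all members. The list was set by name, and the match of each name to such an RNA was not checked here. The probe hsa-miR-1280, a withdrawn name that matches a transfer RNA, gave 12.98 and 14.55, and hsa-miR-1246, which matches U2 small nuclear RNA, gave 13.41 and 12.68. The transfer RNA names hsa-miR-1260b at 12.51 and 13.03, hsa-miR-1260 at 11.95 and 13.26 and hsa-miR-1274a at 12.02 and 12.41 were of like brightness. The Y RNA name hsa-miR-1975 gave 12.54 and 12.03. The dimmest of the list were hsa-miR-1201 at 6.47 and 5.39 and hsa-miR-1291 at 6.81 and 6.58. In total RNA these parent RNAs are abundant and longer than a miRNA, and which molecule a probe read was not measured.

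Names without a miRNA gene in the RefSeq tables were commoner among bright members. No gene was matched for 48 of 1115 members, or 4.3%, but for 31 of the 351 above the limit, or 8.83%, and for 7 of the 30 brightest, or 23.3%. The 7 were hsa-miR-1259 at 13.82 and 13.76, hsa-miR-1280, hsa-miR-923 at 14.35 and 13.11, hsa-miR-1273 at 12.84 and 12.30, hsa-miR-566 at 12.84 and 11.74, hsa-miR-1975 and hsa-miR-1274a. Sorted by the number in the name, 83 of 157 members numbered 1000 to 2999 passed, or 52.9%. Of those numbered up to 199, let-7 included, 108 of 252 passed, or 42.9%. The lowest shares were 21.5% for names from 500 to 999 and 20.3% for names from 3000 to 4999.

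Other bright names among the first 30 belonged to no abundant family. The probe hsa-miR-1268 gave 14.46 and 13.23, hsa-miR-4313 gave 12.60 and 13.95, hsa-miR-574-5p gave 12.96 and 13.09 and hsa-miR-202* gave 12.26 and 12.57. The sequence of miR-574-5p, at chr4:38868056-38868078 (+) within the spans of TLR6 and FAM114A1, is printed because it is a run of GU repeats.
hsa-miR-574-5p: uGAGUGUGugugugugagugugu
Of 27 probes whose names are noted for high GC content, 13 passed, or 48.1%, and 7 under the median-based limit. Among those that passed were hsa-miR-1207-5p at 10.01 and 9.85, hsa-miR-663b at 9.94 and 9.75 and hsa-miR-638 at 9.75 and 9.66. The dimmest was hsa-miR-939 at 6.71 and 4.10.

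miRNAs known from other tissues were dimmer as a whole, with 36 of 192 probes above the limit, or 18.8%, against 114 of 228, or 50%, for the families and classes. The low share came from 2 large clusters: without the C19MC and 14q32 lists, 27 of 73 passed, or 37%, above the share over all members. Under the stricter limits 18 and 19 of the 192 passed. The placental C19MC list passed with 2 of 57 probes, hsa-miR-498 at 9.88 and 10.89 and hsa-miR-519e* at 6.99 and 7.23. It held the dimmest member of all, hsa-miR-1283 at 4.35 and 4.85. The probe hsa-miR-1323, whose hairpin lies in this cluster, was not on the list and passed at 7.79 and 8.43. The imprinted 14q32 cluster passed with 7 of 62, and with 3 or 4 under the stricter limits, led by hsa-miR-494 at 13.79 and 13.26, hsa-miR-323-5p at 9.92 and 9.85, hsa-miR-543 at 8.61 and 9.14 and hsa-miR-412 at 8.07 and 9.05, with hsa-miR-541 at 7.82 and 7.28, hsa-miR-668 at 7.18 and 6.99 and hsa-miR-495 at 7.02 and 6.88 nearer the limit. Haematopoietic markers passed with 1 of 11, hsa-miR-150 at 7.84 and 8.37, while the red cell marker hsa-miR-451 at 6.20 and 6.46 and the myeloid marker hsa-miR-223 at 5.18 and 6.12 did not. The RNA came in bulk from a cell line, so each signal is an average over its cells. How many of the cells carried a given RNA was not measured.

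The remaining lists of other tissues each held bright probes beside dim ones. Embryonic miRNAs passed with 3 of 15, which were hsa-miR-373* at 10.58 and 10.87, hsa-miR-371-3p at 10.20 and 10.69 and hsa-miR-371-5p at 9.63 and 9.92, and no probe of the miR-302 cluster passed. Stromal and endothelial miRNAs passed with 5 of 12, and with 2 under each stricter Randomer limit, led by hsa-miR-214 at 9.06 and 9.00 and hsa-miR-126* at 8.54 and 8.62, then hsa-miR-145* at 8.17 and 7.45, with the stromal marker hsa-miR-143 at 6.60 and 6.25. Of 6 pancreatic, squamous and neuroendocrine names 3 passed: epithelial hsa-miR-203 gave 9.51 and 9.11, neuroendocrine hsa-miR-375 gave 7.33 and 7.57 and squamous hsa-miR-205 gave 7.06 and 7.81. Neural names passed with 12 of 18, or 66.7%, above the background share, but with 6 under each stricter Randomer limit and 2 under the mouse-only one. They were led by hsa-miR-212 at 14.12 and 13.91, hsa-miR-138-1* at 11.78 and 12.14 and hsa-miR-219-1-3p at 11.11 and 11.64. Of these neural probes, 8 of 12 unstarred and 4 of 6 star probes passed. The unstarred hsa-miR-9 at 6.63 and 6.75, hsa-miR-138 at 6.94 and 5.56 and hsa-miR-137 at 6.30 and 4.53 did not. Nor did hsa-miR-219-5p, with a mean of 6.29. Of 9 muscle and heart probes 2 passed, hsa-miR-206 and hsa-miR-499-5p at 7.62 and 8.11, while hsa-mir-1 gave 6.21 and 6.76. Under each stricter Randomer limit at most 1 probe passed in each of the muscle, haematopoietic, C19MC and pancreatic lists. The probe hsa-miR-132, which shares a transcript with miR-212, gave 7.15 and 7.02.

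Some of these signals were not repeated by the mouse-named probe of the same name on the same arrays. The neural hsa-miR-124 gave 10.50 and 10.73, against 6.66 and 6.73 for its mouse namesake, and hsa-miR-124* gave 9.42 and 9.53, against 5.96 and 6.25. The liver miRNA hsa-miR-122 gave 9.61 and 9.88, against 6.69 and 6.77 for the mouse-named probe. The muscle miRNA hsa-miR-206 gave 9.23 and 9.83, against 6.78 and 5.89. In each of these 4 the human-named probe passed the limit and the mouse-named one did not, and the groups of 2 values did not overlap. Such failures were not confined to names of other tissues. In the miR-200 family the mouse-named probes of miR-141 (6.41 and 6.45), miR-200a (7.20 and 6.03) and miR-429 (6.46 and 6.50) did not pass. Those of miR-200b (9.66 and 9.26) and miR-200c (10.25 and 10.35) did. The mouse-named probe of miR-34a, at 5.69 and 5.72, did not pass either. Other names held in both, with hsa-miR-212 at a mean of 14.02 against 13.38, hsa-miR-494 at 13.52 against 14.36 and hsa-miR-92a at 15.32 against 15.18.

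Over the 349 names with probes in both sets, the SD of the difference in means was 0.96. Both probes passed for 114 of the 141 whose human-named probe passed. The gap exceeded 2 for 11 names. Pearson's r was 0.88 and Spearman's rho 0.71 across names, which share arrays and often sequence and are not independent samples. The largest gaps in the other direction were for hsa-miR-329, at 5.60 and 5.85 against 11.07 and 11.58 for the mouse-named probe, and for hsa-miR-181a-2*, at 7.35 and 8.73 against 12.70 and 13.01. Mouse sequences were not used here, so whether the paired probes match in sequence was not examined.

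Probes with 1 or 2 designed mismatches gave another view of what a bright member reads. For hsa-miR-21, at a mean of 11.29, the 6 mismatch probes lay between 6.81 and 9.19, all below it, with a median difference of 3.52. For hsa-miR-181a, at 8.95, the 5 mismatch probes lay between 7.27 and 7.91. For hsa-miR-222, at 13.75, the 12 mismatch probes lay between 12.71 and 14.46. For hsa-miR-221, at 12.74, the 4 mismatch probes lay between 11.29 and 12.20. For hsa-miR-17, at 11.34, the 3 lay between 10.71 and 11.52, and for hsa-miR-16, at 8.81, the 5 lay between 8.16 and 9.35. Every mismatch probe was thus dimmer than its mature-named probe for hsa-miR-21, hsa-miR-181a and hsa-miR-221, and also for hsa-miR-210 and hsa-miR-375 near the limit. Those at least as bright numbered 4 of 12 for hsa-miR-222, 2 of 3 for hsa-miR-17, 4 of 5 for hsa-miR-16 and 3 of 4 for hsa-miR-34a.

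**Figure D3:**
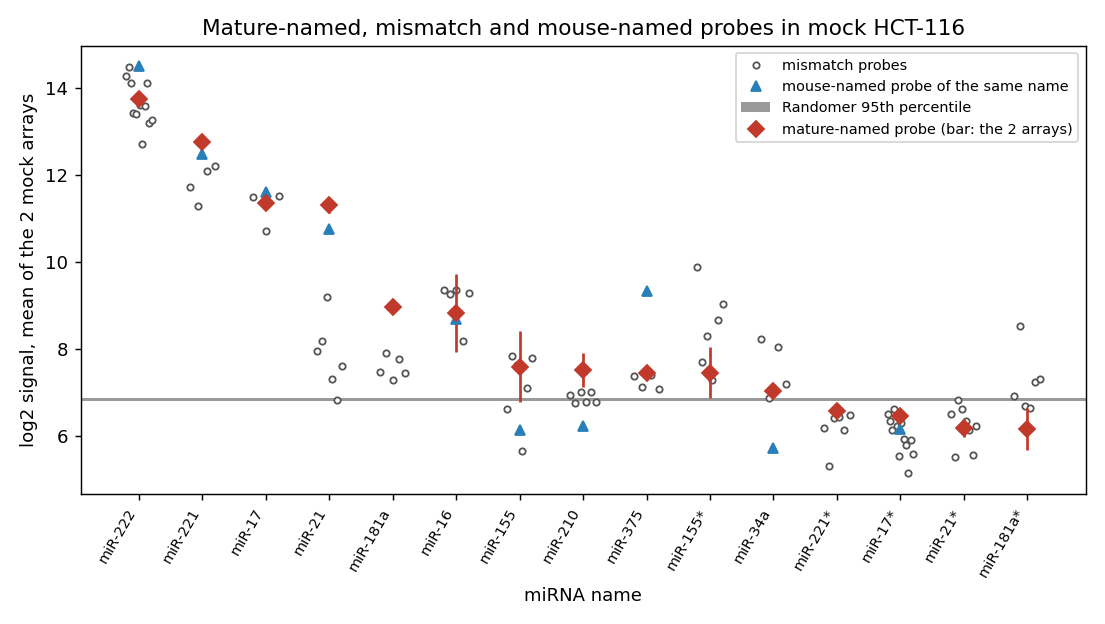
Log2 signal averaged over the 2 mock arrays (y axis) for the 15 miRNA names that have mismatch probes (x axis), with red diamonds for the mature-named probe and bars to its 2 arrays, open circles for mismatch probes, blue triangles for the mouse-named probe where there is one, and a grey band for the limit. The circles lie far under the diamond for miR-21, whose median difference was 3.52, and around it for miR-222, miR-17 and miR-16.

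Pairs of probes whose names share a mature sequence gave a further view of the spread between probes. Members whose RefSeq mature sequence was settled by name numbered 493, and 5 pairs of them had the same sequence. The means of these pairs differed by 0.28 to 0.97. In 1 pair, hsa-miR-199b-3p at 7.18 and 7.36 passed the limit and hsa-miR-199a-3p at 6.39 and 6.22 did not. Names with the same mature sequence thus fell on either side of the limit. Array probe sequences were not used here, so whether the paired probes read the same target was not examined. The other 4 pairs are made of C19MC names, and neither probe passed in any of them.

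Unstarred names passed more often than star names. The unstarred names are not all guide strands, since they include both arms of some hairpins, such as hsa-miR-574-5p and hsa-miR-574-3p. Of the 936 unstarred members 310 passed, or 33.1%, and of the 179 star members 41, or 22.9%. In the 150 names with both strands on the array, 58 had only the unstarred probe above the limit, 12 only the star, 18 both and 62 neither. The median difference, unstarred minus star, was 0.77, and it was 7.89 for hsa-miR-23b and 7.51 for hsa-miR-222. The balance was turned for hsa-miR-202, whose unstarred probe gave 7.47 and 6.79 and whose star probe gave 12.26 and 12.57, for hsa-miR-373 and for the endothelial hsa-miR-126, at 6.02 and 6.25 against 8.54 and 8.62 for its star.

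Brightness differed with base content. Hairpin GC content was available from RefSeq for 908 of 1115 members, or 81.4%, taken as the mean over a member's loci. The members were divided by GC content into 4 bins of nearly equal size. In the bin with the highest GC 106 of 226 passed, or 46.9%, and in the next 75 of 228, or 32.9%. Below these 40 of 226 passed, or 17.7%, and in the lowest bin 52 of 228, or 22.8%. Across these members Spearman's rho of GC content and mean signal was 0.27, given as a description. Of the 21 of the 30 brightest with a GC value, 6 lay in the bin with the highest GC, 7 in the next, 6 in the one below and 2 in the lowest. The part of base content in any family's signal was not tested.

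Pooled over all clusters, names in genomic clusters and other matched names passed at like shares. Names whose hairpin lies within 10 kilobases of another member's hairpin on the same strand passed with at least 1 probe for 72 of 205, or 35.1%, and other matched names for 211 of 595, or 35.5%. The pooled share includes large, mostly dim clusters: C19MC passed with 2 of 35 names and MIR379 to MIR656 of 14q32 with 7 of 38. The C19MC names that passed here were miR-1323 and miR-519e. This cluster, set by hairpin position, did not include miR-498, which is on the C19MC list above. A share without them was not computed. Of the 56 such clusters, 22 had a bright probe for every name, 18 for none and 16 for some. A RefSeq hairpin was available for 908 of 1115 members, and a name without one could not count as clustered. The cluster from MIR25 to MIR106B thus held 2 hairpins without miR-93, and MIR200B to MIR429 held 2 without miR-200a. The shares and cluster counts hold only for the hairpins available. A name with hairpins in several clusters, such as let-7a or miR-24, counted in each. Those with every name bright included the pairs MIR221 and MIR222, MIR200C and MIR141, MIR195 and MIR497, MIR29A and MIR29B1, and the let-7 cluster of chromosome 9. Those with none included the miR-302 cluster of chromosome 4, the miR-449 cluster of chromosome 5 and the miR-424 and miR-503 cluster of the X chromosome.

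The 2 arrays set the error of all these values. Among the 351 bright members the SD of the difference between arrays was 0.69, and the median of the SDs over the 2 values was 0.29. Pearson's r between arrays was 0.93 over these probes and 0.92 over all 1115. Of the 30 brightest on each array, 24 were shared. Differences above 1 were found for 51 of the 351 and above 2 for 3, which were hsa-miR-1300 at 10.37 and 7.54, hsa-miR-3117 at 13.17 and 10.68 and hsa-miR-1826, a name matching ribosomal RNA, at 9.91 and 7.90. In the other direction hsa-miR-2861 gave 7.58 and 9.48, hsa-miR-1270 gave 7.95 and 9.78 and hsa-miR-3173 gave 7.48 and 9.18.

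**Figure D4:**
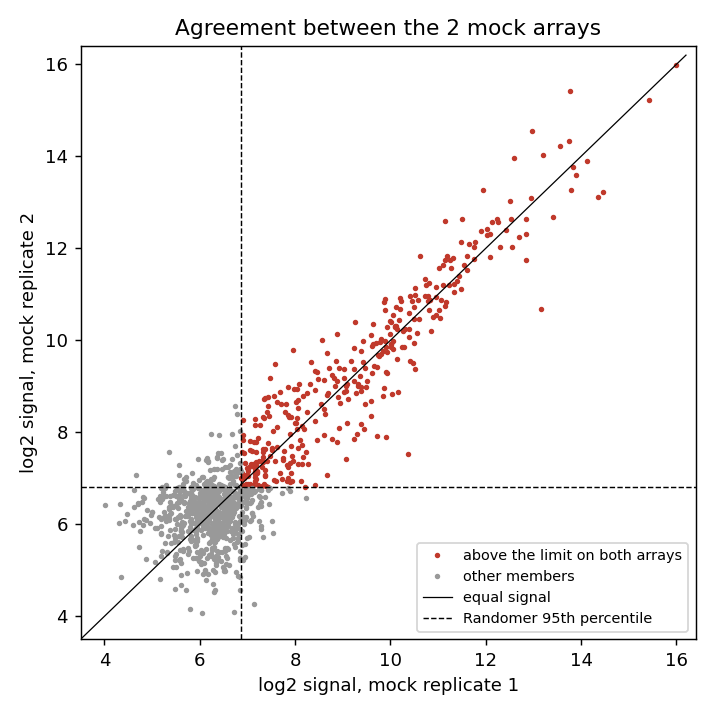
Log2 signal of the 1115 members on mock replicate 1 (x axis) and mock replicate 2 (y axis), with red points above the limit on both arrays, grey points for the rest, a diagonal of equal signal and dashed lines at the limits of 6.86 and 6.81. Red points follow the diagonal with an SD of the difference of 0.69, and grey points form a round cloud at background.

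At the limit itself the call was a matter of hundredths. Just inside were hsa-miR-29a* at 7.05 and 6.81, hsa-miR-129-3p at 7.44 and 6.81, hsa-miR-500b, hsa-miR-186 and hsa-miR-4284. Just outside were hsa-miR-423-3p at 6.86 and 7.16, hsa-miR-1972 at 7.86 and 6.80, hsa-miR-155*, hsa-miR-202 and hsa-miR-135a. At the dim end lay, above hsa-miR-1283, the embryonic hsa-miR-302d* at 5.79 and 4.16 and hsa-miR-367 at 6.04 and 4.07, the red cell hsa-miR-144 at 4.88 and 5.25 and hsa-miR-380 of the 14q32 cluster at 4.71 and 5.51. Also among the 10 dimmest were hsa-miR-3194 at 5.17 and 4.82, hsa-miR-4297 at 5.60 and 4.67, and the C19MC names hsa-miR-518e* at 5.48 and 4.58 and hsa-miR-523 at 5.71 and 4.56. Signals in this range lie under the Randomer median and give no order of level.

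The control probes bound how the arrays can be read. The 4 small nucleolar RNA probes were bright, with means from 10.15 to 12.65, and the human GAPDH probe gave 8.94 and 6.22. Of 93 mismatch probes 54 passed the limit, or 58.1%.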

How the data were processed

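Per the values, the deposited table holds log2 probe signals already normalized by the authors (array medians 6.58 and 6.57, highest value 15.99 on both mock arrays). The submitters' processing notes name limma without a version. Per the labels, 4 µg of total RNA was labelled with random octamers. How background was corrected, how arrays were normalized and which build applied: not given in the sources used here.

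Only the 2 mock arrays were used, numbered by order of deposit. Of 1122 features fitting the name rule, 4 small nucleolar RNA probes and 3 with a variant precursor tag were left out. Members and lists were chosen with earlier results of these data known. Computed here (python 3.11.15, pandas 2.3.3): means, limits, counts and RefSeq matches, with the counting step tested on simulated data. Precision is limited by 2 arrays. No test was run. Named probes are those at the ceiling (set at a fixed log2 value near the highest reading), the 30 brightest, the 10 dimmest, those nearest the limit, those differing most between arrays, and per list those above the limit or the 6 brightest and 2 dimmest. Further names, such as hsa-miR-19a, hsa-let-7f and the mouse and mismatch contrasts, were chosen after their values were seen. Alternatives changed the limit, the arrays, the unit counted and the ranking.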

Additional observations from a re-analysis of the deposited data

Results flagged for a closer look

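Outside the human miRNA features, 6 mature probes named for mouse miRNAs with no human namesake gave a signal of at least 12 on both mock arrays, far above the Randomer limit: mmu-miR-290-5p at 15.99, mmu-miR-2140 at 14.06, mmu-miR-2138 at 13.04, mmu-miR-1937a at 12.90, mmu-miR-709 at 12.82 and mmu-miR-1937b at 12.65. The spacer feature, which names no RNA, gave 11.72, while both blank features lay near 6. With 2 arrays no array could be examined as standing apart from its group.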

How the results depend on the processing

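The share of members above the limit, 31.5%, depended on the limit. It was 19.1% with the highest Randomer probe as the limit, 19.3% with the Randomer median plus 3 scaled median absolute deviations, and 3.59% with the 95th percentile of the mouse-only probes. Under these limits 18, 19 and 3 probes of other tissues passed in place of 36, and 56 passed where 1 array sufficed. The mouse-only limit left 26 of the 114 family and class probes. A single array gave 38% to 39.2% of members, 130 to 135 family and class probes and 46 probes of other tissues. The share was 31.4% over distinct names. At a ceiling of log2 15 there were 2 members in place of 1. Between 27 and 30 of the 30 brightest stayed among them under each ranking tried. Of the 31 lists, the count stayed within 1.5 times for 24 without replicate 1, 27 without replicate 2, 22 where 1 array sufficed, 17 with the highest Randomer probe, 15 with the median-based limit and 5 with the mouse-only limit. The limits themselves rest on 38 probes per array, and 2 arrays give no test. No paired analysis was possible because there is a single group.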
